A study of Mus musculus with 7 samples.

Results

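HDAC1 binding was examined at 8 genes for transcription factors that act along the anteroposterior axis of the limb bud, the axis from thumb to little finger. These were Hand2, which is expressed posteriorly, the anterior factors Alx1, Alx4 and Pax9, and Sall1, Sall3, Sall4 and Zbtb16, whose expression is not limited to the anterior or the posterior margin and which are called zone-wide here. A peak was assigned to a gene when it overlapped by at least 1 bp the gene body with 20 kb added on each side (mm10, GENCODE M21 annotation). Of the 15347 HDAC1 peaks in the deposited list, 39 were assigned in this way, and 7 of the 8 genes had at least 1 peak.

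The list was made from 4 immunoprecipitations with an HDAC1 antibody and 3 inputs (sheared chromatin before immunoprecipitation), prepared from Swiss Webster mouse embryos at E11.5 with 40 to 44 somites. Forelimb and hindlimb buds were combined, and according to the labels each sample pooled 3 litters; the labels give a strain but neither a mutant allele nor a treatment. Anterior and posterior cells of the bud were not separated, so a peak present in cells of one side and a peak present in all cells cannot be told apart. All 7 samples contributed to 1 list of coordinates ordered by rank, which holds no read number, height or value for a single sample, so the depth behind a peak is unknown, no difference could be set against a replicate error, and no test was made.

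HDAC1 is a histone deacetylase that takes acetyl groups off histone tails as part of corepressor complexes such as NuRD, Sin3 and CoREST, and it is found at active promoters as well as at repressed genes. In the limb bud, HAND2 acts upstream of Shh in the posterior mesenchyme, and the repressor form of GLI3 restricts Hand2 from the anterior mesenchyme. Loss of Alx4 gives extra anterior digits, and the SALL zinc finger proteins and the BTB zinc finger protein ZBTB16 (PLZF) take part in patterning of the limb skeleton.

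The number of peaks was 10 at Hand2, 7 each at Alx4, Sall1 and Sall3, 3 each at Sall4 and Zbtb16, 2 at Pax9 and 0 at Alx1. Among 21938 protein-coding genes, 59.3% had any peak in the same kind of window and 1.14% had 7 or more, as 4 of the 8 genes did. The cut-off of 7 is the count at Alx4, Sall1 and Sall3 themselves, so the share is a description only. The median number of peaks was 5 at the 8 genes and also 5 in the anteroposterior list described further below. The length covered by peaks followed a similar order, with 14450 bp at Hand2, 8150 bp at Sall1, 4900 bp at Alx4, 4850 bp at Sall3, 3350 bp at Sall4, 2600 bp at Zbtb16, 800 bp at Pax9 and 0 bp at Alx1. With the 20 kb flanks Hand2 stood at the top of the 8 genes and Alx1 at the bottom, and both anterior factors with peaks had less covered length than Sall1. Within the gene bodies alone the order turned, with 1 peak at Hand2 beside 7 at Alx4, 5 at Sall1 and 4 at Sall3. The body length covered was then 3651 bp at Hand2, the whole of this short gene, beside 5763 bp at Sall1 and 4666 bp at Alx4. In the full windows Alx4 and Sall3 differed by 50 bp, which is the step in which all peak coordinates of the list are given.

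Among all protein-coding genes, 29 had more covered length than Hand2, 77 more than Sall1, 262 more than Alx4, 271 more than Sall3, 782 more than Sall4, 1424 more than Zbtb16 and 7851 more than Pax9. The median covered length was 4100 bp over the 8 genes and 404.5 bp over all protein-coding genes. Wide gene windows can hold more peaks, so covered length was also taken as a percent of the window. It was 33.1% at Hand2, 14.3% at Sall1, 8.03% at Sall3, 6.21% at Alx4, 5.62% at Sall4, 1.31% at Pax9 and 1.17% at Zbtb16. Zbtb16 is the longest of the 8 genes (181926 bp), and it changed places with Pax9 under this measure, as Alx4 did with Sall3, whereas Hand2 and Sall1 kept the first places. By this measure 17 protein-coding genes exceeded Hand2 and 70 exceeded Sall1.

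**Figure D1:**
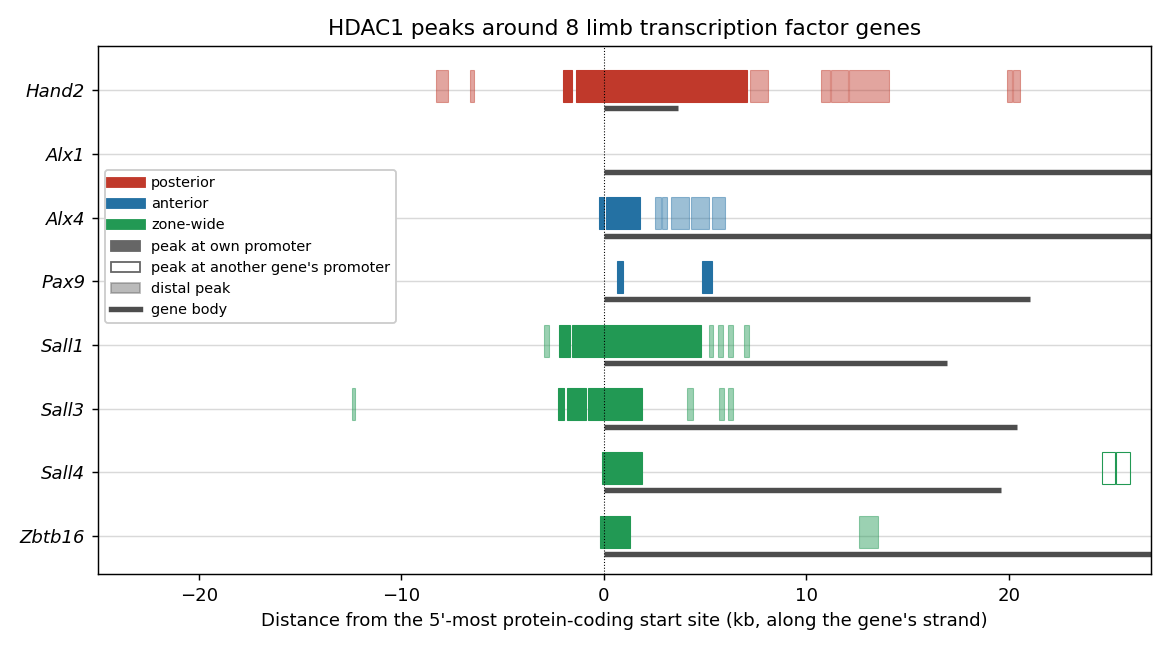
HDAC1 peaks around the 8 genes, drawn by distance from the 5'-most protein-coding start site in kb along the gene's strand, with gene bodies as dark bars beneath. Dark boxes are peaks at a gene's own promoter, light boxes distal peaks and open boxes peaks at the promoter of another gene; a single Zbtb16 peak more than 80 kb inside the gene lies beyond the plotted range. The 3651-bp body of Hand2 lies within 1 box, and the row of Alx1 is empty.

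**Figure D2:**
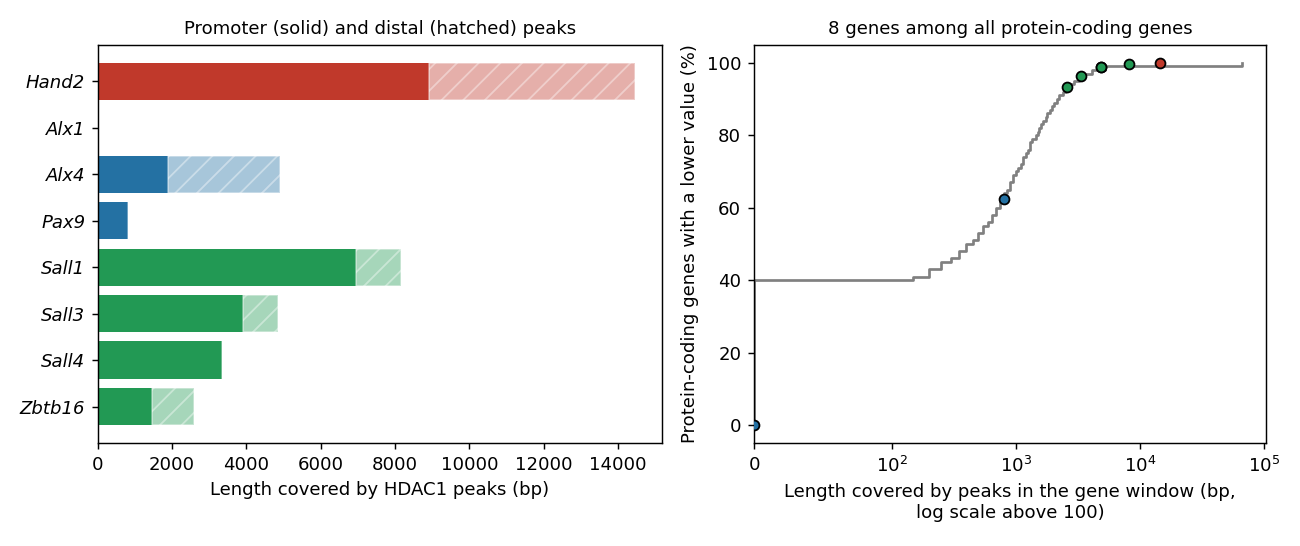
Length covered by HDAC1 peaks in each gene window in bp (left; solid for peaks at a protein-coding promoter, hatched for distal peaks) and the 8 genes placed among all protein-coding genes (right; grey line, percent of genes with a lower value; colours as posterior red, anterior blue, zone-wide green). Hand2 reaches 14450 bp, and Alx1 is at 0.

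Peaks were divided into promoter peaks, which overlapped a window from 2 kb before to 1 kb after the transcription start site (TSS) of a protein-coding transcript, and distal peaks. A peak counted at a TSS is one that overlaps such a window, and it need not contain the start itself. At the 8 genes 15 of 39 peaks (38.5%, 95% Wilson interval 24.9 to 54.1%) were promoter peaks, against 70.1% of the whole list (69.4 to 70.8%). Among the first 7673 peaks of the ranked list the shares were 63.2% at the 8 genes and 82.3% over all peaks. In the comparison lists described further below, 55 of 127 (anteroposterior), 10 of 21 (limb identity) and 9 of 19 (proximal homeobox) peaks were promoter peaks. A lower share than that of the whole list was thus not particular to the 8 genes. Promoter peaks made up 2 of 10 at Hand2 and 13 of 29 (44.8%, interval 28.4 to 62.5%) at the other members. Peaks of 1 gene are not independent of each other, so these intervals cover the counting of peaks only. Of the 15 promoter peaks, 13 overlapped the promoter window of the member itself, and some of these did not contain the start. The other 2, both assigned to Sall4, overlapped the promoter window of the neighbouring gene Atp9a.

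A peak at a TSS of their own was found for 7 of the 8 genes, all but Alx1, and for 43.9% of all protein-coding genes. A distal peak was found for 5 of the 8, namely Hand2 with 8, Alx4 and Sall1 with 5 each, Sall3 with 4 and Zbtb16 with 2, and for 14.4% of all protein-coding genes. Pax9 and Sall4 had promoter peaks and no distal peak. Among the 24 distal peaks, 6 (25.0%) lay at the TSS of a noncoding transcript, a class that held 15.6% of the distal peaks of the whole list. Of these 6, 5 were Hand2 peaks at starts of the neighbouring noncoding genes 5033428I22Rik and Gm34030, and the other members had 1 of 16 (6.25%), so the pooled share rested on 1 locus.

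The main Hand2 peak spanned chr8:57319600-57328049. It was 8450 bp long, stood at rank 16 of the list, and was longer than all but 5 of the 15347 peaks. It began 1383 bp before the start of Hand2, a gene for a basic helix-loop-helix factor, and ended 3416 bp past its end, so that both exons, the intron and all 651 bp of coding sequence lay inside it. A gene body wholly inside 1 peak was seen for 47 protein-coding genes (0.214%), of which Hand2 was the only one of the 8. The median length of these 47 genes was 1335 bp, and 9 of them, Hand2 included, were at least as long as Hand2 (3651 bp). Hand2 was the only one of the 8 genes among the first 20 peaks of the list.

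The other promoter peak of Hand2 was chr8:57318950-57319399 (450 bp, rank 7053), from 2033 to 1584 bp before the start and 200 bp from the main peak. This peak lay in an intron of Hand2os1, the noncoding gene that is transcribed divergently from Hand2. Together the pair covered 93.3% of the promoter window. The 250 bases before the Hand2 start, chr8:57320733-57320982 on the plus strand, lie wholly inside the main peak and overlap an exon of Hand2os1. They are shown (RefSeq, GRCm38.p6) because they are the sequence that the highest-ranked peak of the 8 genes spans, with CpG dinucleotides in capitals.
Hand2 promoter: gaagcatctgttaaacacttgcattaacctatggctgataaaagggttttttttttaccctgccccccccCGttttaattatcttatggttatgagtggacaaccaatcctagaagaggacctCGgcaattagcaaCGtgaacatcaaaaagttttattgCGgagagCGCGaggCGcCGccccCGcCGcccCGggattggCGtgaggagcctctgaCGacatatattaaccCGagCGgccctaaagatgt
This stretch has 15 CpG dinucleotides, a GC content of 49.2% and an observed to expected CpG ratio of 0.993, and most of its CpGs lie in the part nearest the start.

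The 8 distal peaks of Hand2 ranged from 200 to 1950 bp and from rank 3091 to rank 15218. Of these, 2 lay upstream within Hand2os1, at chr8:57312700-57313299 (600 bp, rank 7627) and chr8:57314350-57314549 (200 bp, rank 7514), the second over one of its exons. The best ranked was chr8:57328200-57329099 (900 bp, rank 3091), which began 7217 bp after the Hand2 start, 150 bp beyond the end of the main peak, and overlapped no annotated gene. Farther downstream, 3 peaks stood 50 bp apart over exons of the noncoding genes 5033428I22Rik and Gm34030, and the longest of them was chr8:57333100-57335049 (1950 bp, rank 4147). The last pair, chr8:57340900-57341149 (250 bp, rank 8495) and chr8:57341200-57341549 (350 bp, rank 10299), lay 16267 and 16567 bp past the gene end within 5033428I22Rik.

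This last pair was also the nearest to the 20 kb limit from inside over all 8 genes. The nearest peaks outside it were chr8:57354050-57354299 (250 bp, rank 12655), 29417 bp past the end of Hand2, and a 550-bp peak of rank 2492 at the start of Atp9b, 32327 bp past the end of Sall3. No peak of the 8 genes therefore lay within 3 kb of the limit.

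The central 300 bp of the best ranked distal Hand2 peak, chr8:57328500-57328799, are shown because they are distal sequence without an annotated gene next to the main peak. Capitals mark CAGATG, an E-box of the kind bound by basic helix-loop-helix factors, read on either strand (CATCTG on the opposite one).
Hand2 distal: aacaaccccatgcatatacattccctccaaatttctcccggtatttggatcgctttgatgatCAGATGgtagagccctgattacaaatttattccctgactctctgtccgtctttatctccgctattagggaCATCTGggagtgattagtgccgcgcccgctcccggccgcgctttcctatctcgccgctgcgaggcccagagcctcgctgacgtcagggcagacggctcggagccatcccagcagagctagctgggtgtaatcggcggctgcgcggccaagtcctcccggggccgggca
The stretch holds 2 matches and has an observed to expected CpG ratio of 0.910.

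Alx1 had no peak in its window on chromosome 10 (gene body chr10:102998707-103030215), although it has 5 annotated coding starts. Alx1 encodes a paired-type homeodomain factor, as does Alx4. The nearest peak lay 2511208 bp away, and only 280 protein-coding genes (1.28%) were farther from a peak. The gene lay in a stretch of 5.09 Mb with no peak, between peaks at the starts of Tmtc3 and Tmtc2, which held 16 protein-coding genes, Alx1 included, and 23 of the 15326 gaps between neighbouring peaks were longer. Slc6a15, Nts, Rassf9, Mgat4c and Lrriq1 were among these genes, so the lack of a listed peak was shared by the neighbours of Alx1. Weaker binding below the peak threshold would not be visible.

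Alx4 had 7 peaks, all between 234 bp before and 5965 bp after its start and none in the remaining body of this 38956-bp gene. The longest and best ranked was chr2:93642500-93644149 (1650 bp, rank 1620), which overlapped the first exon. In all, peaks covered 33.0% of the coding sequence. A short peak, chr2:93642150-93642399 (250 bp, rank 9969), contained the start itself. The 5 distal peaks followed in the first intron, from 250 to 900 bp long and from rank 6040 to rank 12548, with gaps of 1000 bp or less throughout. Of the distal peaks, chr2:93645700-93646599 (900 bp, rank 6040) was the best ranked and, with its neighbour chr2:93646700-93647599 (900 bp, rank 8535), the longest. Its central 300 bp, chr2:93646000-93646299 on the plus strand, are shown as the intronic counterpart of the distal Hand2 sequence, again with the E-box in capitals.
Alx4 distal: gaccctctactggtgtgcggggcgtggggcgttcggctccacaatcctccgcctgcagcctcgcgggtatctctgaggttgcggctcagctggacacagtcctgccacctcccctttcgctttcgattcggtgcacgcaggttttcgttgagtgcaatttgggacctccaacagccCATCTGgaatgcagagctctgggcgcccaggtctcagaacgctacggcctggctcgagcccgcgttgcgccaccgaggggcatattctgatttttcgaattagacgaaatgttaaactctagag
The stretch holds 1 match, with a GC content of 59.0% and a CpG ratio of 0.882. Over the 8 genes, 7 distal peaks held the E-box in their central 300 bp, and 5 of these, at Hand2 and Alx4, had a CpG ratio above the median of the list's distal peaks (0.373). The remaining 2, at Sall1 and Sall3, had 0.225 and 0.227. Every distal peak of Hand2, with or without the E-box, lay above this median (0.454 at the lowest). So did some distal peaks without the E-box at Alx4, Sall1, Sall3 and Zbtb16. A link between the E-box and CpG content was not tested.

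Pax9, which encodes a paired-box factor, had the fewest peaks, the shortest covered length and the latest leading rank of the genes with a peak. Its peaks were chr12:56692400-56692699 (300 bp, rank 11186), in an intron from 633 to 932 bp after the first annotated start, and chr12:56696600-56697099 (500 bp, rank 7096), inside a coding exon and just within the window of a second annotated start. These covered 5.66% of its promoter windows and 1.31% of the gene window, but 48.7% of its coding sequence. The first of them also overlapped an exon of Gm15524, an antisense noncoding gene. The 250 bases before the Pax9 start annotated by RefSeq, chr12:56695221-56695470 on the plus strand, lay in neither peak, and they are shown as a contrast to Hand2, with CpG in capitals.
Pax9 promoter: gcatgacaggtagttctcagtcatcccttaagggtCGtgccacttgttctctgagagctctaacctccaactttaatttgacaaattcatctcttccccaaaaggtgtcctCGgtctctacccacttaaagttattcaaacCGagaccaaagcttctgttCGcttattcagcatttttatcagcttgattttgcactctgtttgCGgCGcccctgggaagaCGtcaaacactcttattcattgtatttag
These bases hold 7 CpG dinucleotides, a GC content of 43.6% and a CpG ratio of 0.617.

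Of the zone-wide factors, Sall1 was the nearest to Hand2 in the size of its main peak. That peak, chr8:89039350-89045749, was 6400 bp long at rank 199, and 18 peaks of the list were longer. It reached from 1587 bp before to 4812 bp after the Sall1 start and, unlike the Hand2 peak, ended within the gene, so that 34.04% of the gene body but only 1.91% of the coding sequence of this zinc finger gene lay under peaks. A further promoter peak was chr8:89045850-89046399 (550 bp, rank 5282), and the 2 promoter peaks covered 96.7% of the promoter window. The 5 distal peaks were 200 to 250 bp long. They flanked the main peak, 4 in an intron and 1 upstream, with every gap at or under 1000 bp. The best ranked was chr8:89038300-89038549 (250 bp, rank 7655), and the others ranked between 11241 and 13265.

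RefSeq lists 3 starts for Sall1, and the windows of all of them lay wholly inside the main peak. The 250 bases before the outermost start, chr8:89044163-89044412 on the minus strand, are shown for comparison with Hand2, with CpG in capitals.
Sall1 promoter: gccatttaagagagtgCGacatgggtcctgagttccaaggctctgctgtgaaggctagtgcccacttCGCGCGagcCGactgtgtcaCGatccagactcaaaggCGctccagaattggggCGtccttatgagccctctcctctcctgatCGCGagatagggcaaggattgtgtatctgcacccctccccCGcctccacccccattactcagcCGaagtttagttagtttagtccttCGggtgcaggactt
They hold 13 CpG dinucleotides with a GC content of 56.4% and a CpG ratio of 0.658. This stretch thus has a higher GC content but a lower CpG ratio than that of Hand2. It was the lowest of the 3 in both measures, since the others had 74.4% and 78.4% GC with CpG ratios of 0.724 and 0.782.

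Sall3, on chromosome 18 (gene body chr18:80966376-80986771), had 7 peaks in an arrangement like that of Sall1 at smaller size. The main peak, chr18:80984900-80987549, was 2650 bp long at rank 639 and spanned the start. Next to it upstream stood chr18:80987650-80988599 (950 bp, rank 2773) and chr18:80988750-80989049 (300 bp, rank 12164), and these 3 promoter peaks covered 91.7% of the promoter window. The 4 distal peaks were 150 to 300 bp long. The longest and best ranked of them was chr18:80982350-80982649 (300 bp, rank 8322), 1 of 3 in an intron, and the remaining one lay upstream of the gene. As at Sall1, little of the coding sequence was covered (2.19%).

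Sall4 had 1 peak at its own start, chr2:168765300-168767299 (2000 bp, rank 2120), from 98 bp before to 1901 bp after it, which covered 40.1% of its promoter windows and 10.2% of its body. The other peaks in its window were chr2:168741200-168741899 (700 bp, rank 5393) and chr2:168741950-168742599 (650 bp, rank 6235) at the start of Atp9a, so the count of 3 for Sall4 included 2 that belong to the promoter of a neighbour. By own-promoter peaks the genes with binding ranged from 1 at Sall4 and Zbtb16 to 3 at Sall3.

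At Zbtb16 the own-promoter peak, chr9:48834950-48836399 (1450 bp, rank 6309), was not the best ranked. An intronic peak, chr9:48822700-48823599 (900 bp, rank 2807), which began 12623 bp after the start, ranked higher, and this was the only one of the 5 genes with distal peaks at which a distal peak led. It was also the best ranked of all 24 distal peaks of the 8 genes. The third peak, chr9:48755750-48755999 (250 bp, rank 13232), lay 80223 bp inside the gene. No coding base of Zbtb16 was under a peak. The central 300 bp of the leading intronic peak, chr9:48823000-48823299 on the plus strand, are shown because they are the centre of the highest-ranked distal peak of the 8 genes; they hold neither the E-box nor the other letter strings searched below, and no capitals are marked.
Zbtb16 distal: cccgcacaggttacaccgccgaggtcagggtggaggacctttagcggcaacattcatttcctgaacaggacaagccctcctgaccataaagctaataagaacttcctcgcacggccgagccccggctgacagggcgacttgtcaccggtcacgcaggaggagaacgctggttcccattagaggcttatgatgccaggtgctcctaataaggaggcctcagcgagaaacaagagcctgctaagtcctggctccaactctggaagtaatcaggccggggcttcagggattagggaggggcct
Their GC content was 57.3% and their CpG ratio 0.568.

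By leading rank, the order of the 7 genes with peaks was Hand2 (16), Sall1 (199), Sall3 (639), Alx4 (1620), Sall4 (2120), Zbtb16 (2807) and Pax9 (7096). A better leading rank than that of Hand2 was found for 43 protein-coding genes, and than that of Pax9 for 9197. The longest peak per gene fell in the same order as the leading rank in this list, from 8450 bp at Hand2 over 6400, 2650, 1650 and 2000 bp to 1450 bp at Zbtb16 and 500 bp at Pax9, except that Alx4 and Sall4 changed places. Rank and length were not independent in the list, since the median length was 1050 bp over its first 3836 peaks and 250 bp over its last 3837.

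The 39 peaks were spread over the whole list, with 8 among its first 3836 peaks and 11, 11 and 9 in the runs of 3837 peaks that follow. Of these, 6, 6, 2 and 1 were promoter peaks, and the share of promoter peaks in the whole list fell likewise from 87.9% over 76.7% and 62.5% to 53.3%. Over all 39 peaks the median length was 450 bp and the median rank 8322, beside 450 bp and 7674 for the whole list. Promoter peaks of the 8 genes had a median length of 700 bp (rank 5393) and distal peaks of 275 bp (rank 10188.5). In the whole list these medians were 550 bp (rank 6370) and 300 bp (rank 10283.5).

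The distal peaks of Hand2 had a median length of 525 bp (rank 8061). Those of Alx4 had 650 bp (rank 10078) and those of Zbtb16 575 bp (rank 8019.5), while both Sall1 and Sall3 had 250 bp, so longer distal peaks were not particular to Hand2. Without Hand2 the median length over all peaks of the remaining genes was 300 bp. By group, the 9 peaks of the anterior factors had a median length of 500 bp (rank 9969) and the 20 of the zone-wide factors 300 bp (rank 7988.5).

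**Figure D3:**
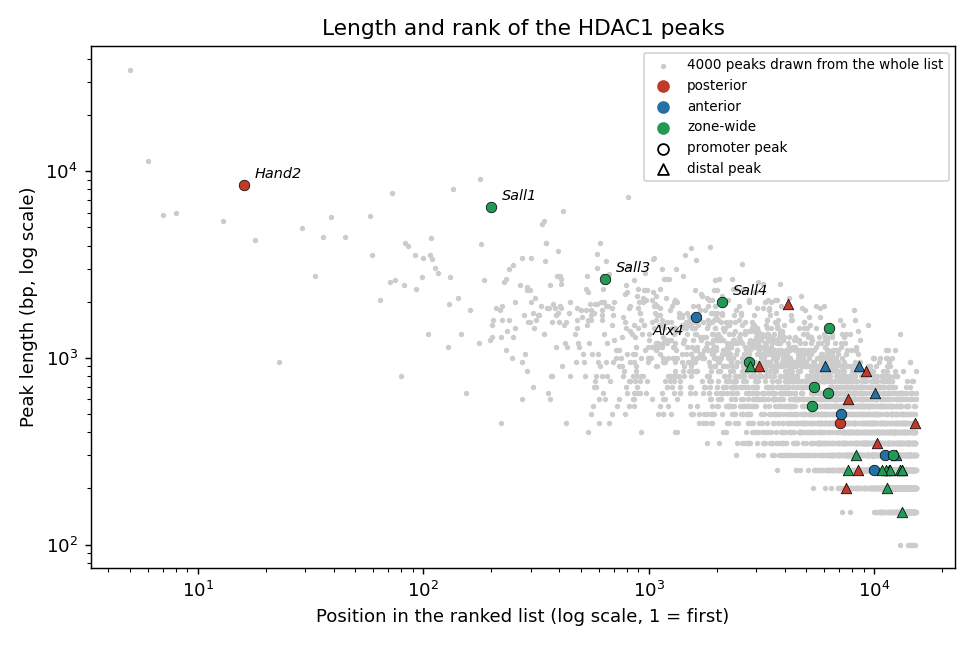
Length in bp against position in the ranked list (both on log scales, rank 1 first) for the 39 peaks of the 8 genes, with 4000 peaks drawn from the list in grey. Circles are promoter and triangles distal peaks, in red for Hand2, blue for the anterior and green for the zone-wide factors; the main peaks of Hand2 and Sall1 lie at 8450 bp (rank 16) and 6400 bp (rank 199), and the distal peaks gather at short lengths and late ranks.

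The spacing of peaks was described within each gene window. Of the 32 gaps between neighbouring peaks in 1 window, 21 (65.6%) were at most 1000 bp, and the median gap was 225 bp. Between neighbouring peaks over all chromosomes 20.6% of gaps were this short and the median was 45950 bp, but these include gaps between genes. A gap inside a window cannot exceed that window, which was 43651 bp wide at Hand2, so the values are not comparable. The spacing in the windows of other genes was not computed. All 6 gaps of Alx4 and all 6 of Sall1 were at most 1000 bp, as were 5 of 9 at Hand2 and 3 of 6 at Sall3, whereas Pax9 and Zbtb16 had none. With peaks no more than 1000 bp apart merged, the 39 peaks became 18, and the 7 peaks of Alx4 and the 7 of Sall1 became 1 each while Hand2 kept 5. The count of peaks per gene thus partly reflected how the binding was divided into intervals. Covered length leaves out the gaps between such intervals, of up to 750 bp at Alx4, so it was not free of this limit.

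The sequence of the peaks was read from the mm10 genome over the 300 bp at the centre of each peak. The median GC content was 58.3% for promoter and 50% for distal peaks of the 8 genes, beside 67.7% and 52.3% in the whole list. The observed to expected CpG ratio was 0.701 and 0.484 at the 8 genes, and 0.842 and 0.373 in the list. The distal peaks of Hand2 had a median GC content of 53.8% and a CpG ratio of 0.618. Those of the other members had 49.3% and 0.347. Among the latter, the ratio ranged from 0.304 to 1.046 at Alx4, whose highest value exceeded every distal peak of Hand2 (0.910 at most). Among the 15 promoter peaks of the 8 genes, the lowest CpG ratio, 0.161, was that of the 450-bp peak upstream of the main Hand2 peak.

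**Figure D4:**
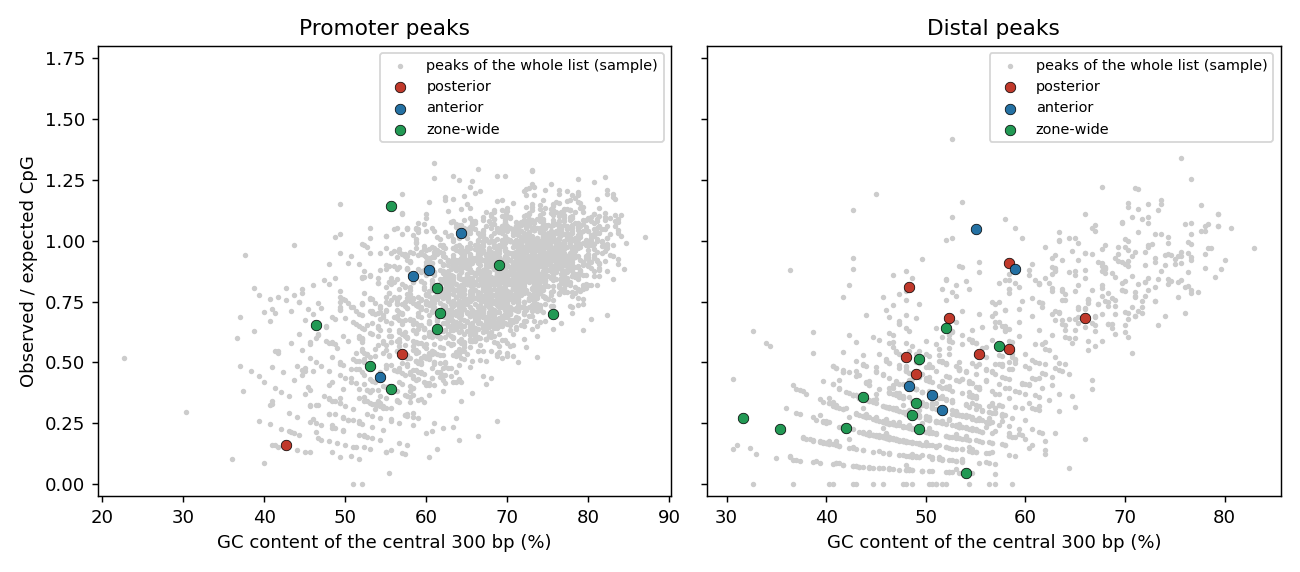
GC content in percent and observed to expected CpG ratio of the central 300 bp of promoter peaks (left) and distal peaks (right), with the 8 genes in colour (posterior red, anterior blue, zone-wide green) over a sample of the whole list in grey. Most promoter peaks of the 8 genes lie to the left of the bulk of the list (medians 58.3% and 67.7% GC), and the distal peaks of Hand2 lie at CpG ratios of 0.454 to 0.910.

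Letter strings were searched on both strands in the same 300 bp, namely GACCACCCA, the core bound by GLI factors, CAGATG, the E-box above, and TAATTA, a homeodomain core that reads the same on both strands. No string is part of another. GACCACCCA was in 0 of the 39 peaks and in 0.326% of all peaks. CAGATG was in 10 of 39 (25.6%) and in 13.9% of all peaks, and the shares were 29.2% and 24.4% among distal peaks and 20% (3 of 15) and 9.48% among promoter peaks. At Hand2 3 of 8 distal peaks held it. TAATTA was in 4 of 39 (10.3%) and in 3.60% of all peaks, with 8.33% and 8.83% of distal peaks and 13.3% (2 of 15) and 1.37% of promoter peaks. Counts of 2 to 7 peaks stand behind these shares of the 8 genes. Both promoter peaks with TAATTA were neighbouring Sall1 peaks (ranks 199 and 5282), so that share rested on 1 locus. Of the 3 promoter peaks with CAGATG, 2 were neighbouring Sall3 peaks (ranks 2773 and 12164). Over its full length the main Hand2 peak held CAGATG 6 times and TAATTA 2 times, and the main Sall1 peak held them 3 and 4 times. A match describes letters and not a bound site.

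The RefSeq table of promoter windows, which held windows for Hand2, Sall1 and Pax9 among the 8 genes, gave a background for the printed promoters. Of 32851 windows of 300 bp, 25.1% overlapped a peak and 10.2% lay wholly inside one, as those of Hand2 and Sall1 did. Overlapped windows had a median CpG ratio of 0.830 and a GC content of 64.8% in the bases before the start, and the others had 0.258 and 49.2%. The Hand2 promoter thus joined the CpG ratio of the overlapped windows to the GC content of the others.

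The 5 protein-coding genes most like Hand2 in peak number, covered length and leading rank, by the sum of absolute differences in percentile over all 21938 genes, were Nr2f2, Hoxa5, Hoxa6, Hoxa11 and Hoxa13. Nr2f2, which encodes the orphan nuclear receptor COUP-TFII, had 10 peaks, 13000 bp covered and a leading rank of 30. The 4 Hoxa genes lie in 1 cluster and all had the same 35050-bp peak of rank 5 in their windows, so they are not separate cases.

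A list of 26 other genes of anteroposterior patterning was examined by the same rule (Shh, Ptch1, Gli1, Gli2, Gli3, Hhip, Grem1, Hoxd11, Hoxd12, Hoxd13, Hoxa13, Tbx2, Tbx3, Irx3, Irx5, Sall2, Hand1, Gata4, Gata6, Ets2, Etv4, Etv5, Twist1, Lhx9, Msx2 and Bmp4). A peak was found for 25 of them, a peak at their own TSS for 23 and a distal peak for 21. Hhip, which encodes a Hedgehog-binding antagonist, had no peak, as Alx1 had none. Hand1, the relative of Hand2, and Gata4 had distal peaks without one at their own start. Etv4, Etv5, Gli3 and Grem1 had a promoter peak without a distal one, as Pax9 and Sall4 did. The median number of peaks was 5 for this list and for the 8 genes, and 1 for all protein-coding genes, and the median covered length was 4200 bp for this list beside 4100 bp for the 8 genes.

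Among the limb identity genes Tbx4, Tbx5, Pitx1 and Isl1, all 4 had a promoter peak and 3 a distal peak, with a median covered length of 9850 bp. The proximal homeobox genes Meis1, Meis2 and Shox2 all had both kinds, with a median of 8600 bp. Hand2, at 14450 bp, lay above the median of each of these lists and above every identity and proximal gene listed. In the anteroposterior list 4 genes had more covered length (Hoxa13, Hoxd11, Hoxd12 and Hoxd13), these and Tbx3 had more peaks, and Twist1 also had its body inside 1 peak. These genes were named after their values were seen. Hoxd11, Hoxd12 and Hoxd13 lie in 1 cluster and had the same leading rank (14) and longest peak (9050 bp), so they are not separate cases. The 7 members other than Hand2 lay below the median of the identity genes. Median peak lengths were 500 bp over the 127 peaks of the anteroposterior list, 650 bp over the 21 of the identity genes and 450 bp over the 19 of the proximal genes. No test separates these lists, which are small and were chosen by function.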

How the data were processed

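Sheared chromatin of E11.5 limb buds was immunoprecipitated with an HDAC1 antibody (Abcam ab7028) in 4 samples, with 3 inputs. Per the labels, the submitters' processing notes name Bowtie2 2.2.5 and mm10. CisGenome was the authors' peak caller, with a false discovery rate threshold of 0.05, and a single list of coordinates in rank order was deposited. The deposited columns are coordinates and not a count or a signal, so no depth, replicate value or error was available, and weaker sites can fall below the threshold. The authors also describe a log2 fold change and a false discovery rate for each HDAC1 peak, which were not used here.

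Peak coordinates, all in steps of 50 bp, were taken to count from 1 and to include start and end, and were overlapped with the GENCODE M21 basic annotation. Sequence came from the GRCm38 genome and from RefSeq promoter windows (GRCm38.p6), which matched 3 of the 8 genes. Members, lists and alternatives were chosen with earlier results of these data known, and some genes of the comparison lists are not reported here. Every promoter peak, the longest and the best ranked distal peak of each gene, and the 2 nearest peaks on either side of the 20 kb limit are given in full. Some further distal peaks of Hand2 and Zbtb16 were named after their values were seen. Genes most like Hand2 were taken by percentile. Overlap and merging were tested on simulated intervals. Python 3.11.15, numpy 2.4.6, pandas 2.3.3, scipy 1.17.1 and matplotlib 3.10.9 were used.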

Additional observations from a re-analysis of the deposited data

How the results depend on the processing

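With the gene body alone and no flank, the 8 genes had 23 peaks and Hand2 had 1, fewer than Alx4 (7), Sall1 (5) and Sall3 (4), since the other 9 of its peaks lie outside its short body. Among the first 7673 peaks of the ranked list, the 8 genes had 19 peaks, of which 63.2% were promoter peaks (82.3% over all peaks), and Hand2 had 6. Their median length was 900 bp and their median rank 5282, and by construction these are the better ranked peaks. With peaks no more than 1000 bp apart merged, the 8 genes had 18 peaks with a median length of 800 bp, Hand2 had 5, and 3 genes had a distal peak. The number of genes with a promoter peak of their own was 7 under all alternatives tried. The share of promoter peaks was 53.8% both with 5 kb on each side of a TSS and with the TSS of all transcripts. The 70.1% of the whole list used the narrower definition and is not the match for these values. With the TSS of all transcripts the share of the whole list rises too, since 714 of its 4588 distal peaks lay at a noncoding TSS. Of 43 alternative values 32 stayed within the interval of a share, or within 1.5 times a count or median, and 11 did not. No paired analysis was possible because the list holds no value for a single sample, and leaving out a replicate could not be run for the same reason. Depth behind single peaks is unknown.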
